A study of Mus musculus with 28 samples.

Results

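Expression of 10 circadian clock genes was examined in the livers of 28 male obese mice with diet-induced steatohepatitis. The genes were Arntl, Clock, Npas2, Per1, Per2, Per3, Cry1, Nr1d1, Nr1d2 and Dbp, chosen by symbol and matched to the Ensembl gene identifiers of the count table. All 10 were among its 21935 genes, and 9 had enough counts to be tested, the exception being Npas2. The mice carried the B6.V-Lepob/JRj genotype (Lep ob/ob), which lacks functional leptin, and every group shared this genotype and the AMLN diet, which is high in cholesterol, fructose and fat. They were 5 weeks old at the start and had been fed for 14 weeks before treatment, after which they received vehicle (carboxymethylcellulose, n = 10), obeticholic acid (OCA) at 30 mg/kg (n = 9) or INT-787 at 30 mg/kg (n = 9) by mouth once daily for 2 weeks. OCA and INT-787 are agonists of the farnesoid X receptor (FXR), the nuclear receptor that senses bile acids. There was no lean or chow-fed group, so all values describe this model. The hour at which livers were taken is not given in the sources used here.

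The molecular clock is a feedback loop of transcription. ARNTL (BMAL1) pairs with CLOCK or NPAS2 and activates genes through E-boxes, among them the Per and Cry genes, whose proteins return to inhibit the pair. REV-ERB proteins, encoded by Nr1d1 and Nr1d2, repress Arntl through ROR elements, and DBP, a PAR bZIP factor, carries the rhythm to target genes through D-boxes. In liver the loop runs with large daily swings that follow feeding and systemic cues, and Arntl transcripts peak at about the opposite time of day to those of Nr1d1, Dbp and the Per genes.

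The library totals had a median of 14864947 counts, a maximum of 22421506 and a minimum of 1009593, the last in vehicle replicate 6. All levels are given as CPM, the counts of a gene relative to the TMM-scaled library total. Hepatocyte markers (Alb, Ttr, Apoa1, Serpina1c and Cps1) summed to 60847 CPM or more in every mouse, while T and B cell markers summed to at most 8.25 CPM. With OCA and INT-787 respectively, the FXR targets Nr0b2 (log2 1.17 and 1.62) and Slc51b (2.68 and 3.31) rose and the bile acid synthesis gene Cyp8b1 (-4.11 and -4.28) fell. For 20 scarce genes that lie largely within the exons of an expressed gene on the other strand, the counts in vehicle replicate 5 were 0.957 of those that the other gene would give if its reads counted for both, against 0.00767 to 0.0304 in the other 27 mice. Of the clock genes, this touches Dbp, whose exons overlap those of Sphk2 over 539 bases, Nr1d1, which overlaps Thra over 263 bases, and Arntl, which overlaps Gm45355 over 33 bases.

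Per unit of exon length, the output factor and the REV-ERB genes were the most abundant clock transcripts, and the activators Arntl and Npas2 the least. Over the 28 mice Dbp averaged 62.2 CPM per kb of exon, Nr1d1 45.2, Nr1d2 10.3, Per1 4.60, Per2 3.60, Clock 1.73, Cry1 1.68, Per3 0.905, Arntl 0.151 and Npas2 0.0943. Nr1d1 exceeded Nr1d2, and Nr1d2 exceeded Per1, in 28 of 28 mice. Clock and Cry1 were not separated, Clock being the higher in 16 of 28 mice, and Dbp exceeded Nr1d1 in 20 of 28. Arntl and Npas2 were therefore read from few molecules, with 0 to 78 counts of Arntl and 0 to 48 of Npas2 in a mouse.

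Promoter sequence is shown for 5 clock genes, as stretches of the windows from 250 bases before to 50 after a RefSeq start site (build GRCm38.p6) that held a motif of the loop. The stretches carry D-boxes (Per3), E-boxes (Per1 and Cry1), E-prime boxes (Cry1 and Nr1d1) and a ROR element (Arntl) in capitals, as letter matches of the kinds of element the loop is known to use. They run 5′ to 3′ on the gene's own strand, and AACGTG is the reverse complement of the E-prime box CACGTT. A ROR element on the other strand of the Per1 stretch, 137 bases before the start, is left in lower case.
Per3 (chr4:151044784-151044903, minus strand): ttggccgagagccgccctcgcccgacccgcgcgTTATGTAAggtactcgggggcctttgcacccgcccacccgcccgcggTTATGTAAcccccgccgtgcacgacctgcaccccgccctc
Per1 (chr11:69098726-69098845, plus strand): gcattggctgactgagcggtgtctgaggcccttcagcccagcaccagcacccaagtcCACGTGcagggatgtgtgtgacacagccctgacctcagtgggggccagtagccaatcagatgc
Cry1 (chr10:85185062-85185181, minus strand): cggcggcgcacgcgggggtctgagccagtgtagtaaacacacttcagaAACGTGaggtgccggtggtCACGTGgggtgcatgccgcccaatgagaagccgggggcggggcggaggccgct
Nr1d1 (chr11:98775378-98775497, minus strand): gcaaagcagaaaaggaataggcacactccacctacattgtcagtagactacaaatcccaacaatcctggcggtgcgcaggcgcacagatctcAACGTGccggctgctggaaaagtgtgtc
Arntl (chr7:113207531-113207558, plus strand): aggcagaaagtAGGTCAgggacggaggt

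The motifs were searched on both strands in 13 windows of 9 clock genes, with no window for Per2 at hand. The E-box CACGTG was found for Per1, 166 bases before the start, and for Cry1, 60 bases before it, and 8.09% of 27025 genes with a window held one. The E-prime box CACGTT was found for Cry1 and Nr1d1, at 79 and 28 bases before the start, against 5.44% of all genes. The D-box TTATGTAA occurred for Per3 at 205 and at 158 bases before the start and in 1.11% of all genes, while the D-box TTACGTAA, present in 0.126% of all genes, was in none of the 13 windows. The short ROR element AGGTCA was found for Arntl, Clock, Per1 and Nr1d2 and in 18.1% of all genes. None of these motifs was in the windows of Dbp or Npas2. These are matches of letters in short windows, not measured binding sites.

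The activators were at similar or lower levels in treated livers, and none passed the test in the main fit. Arntl (chromosome 7, 113207465 to 113314126), the partner shared by both activating complexes, had in vehicle a lowest, median and highest level of 0, 1.06 and 4.12 CPM, in OCA 0.501, 1.03 and 2.15 CPM, and in INT-787 0.298, 0.604 and 2.82 CPM. The 3 ranges overlapped widely. The 0 was that of vehicle replicate 6, where 0 of 1009593 counts allows a level of up to 2.76 CPM. The log2 fold change was -0.45 ± 0.402 (SE) with OCA and -0.55 ± 0.403 with INT-787 (edgeR quasi-likelihood test, adjusted p = 0.629 and 0.368). With 1 mouse left out at a time these ranged from -0.61 (without OCA replicate 4) to -0.044 and from -0.90 (without INT-787 replicate 4) to -0.15, the smallest of both being those without vehicle replicate 8, and none was called.

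Clock (chromosome 5, 76209868 to 76304792), which encodes the histone-acetylating partner of ARNTL, ran from 14.5 to 38.6 CPM in vehicle (median 26.9), from 13.2 to 32.4 CPM in OCA (median 22.2) and from 14.5 to 27.1 CPM in INT-787 (median 20.4). Of the 10 vehicle mice, 4 lay above every INT-787 mouse, and 1 of 9 INT-787 mice exceeded the vehicle median. The log2 fold change was -0.40 ± 0.158 with INT-787 (edgeR, adjusted p = 0.0701) and -0.25 ± 0.158 with OCA (adjusted p = 0.443). The INT-787 difference was called in 5 of 37 alternative fits. Npas2 (chromosome 1, 39193731 to 39363236), which can stand in for Clock, reached 2.54 CPM in vehicle replicate 8 and measured at most 1.01 CPM in the others, though its 0 counts in vehicle replicate 6 allow up to 2.76 CPM. Fitted without the filter on low counts, its log2 fold change was -1.0 ± 0.504 with OCA and -0.96 ± 0.501 with INT-787 (edgeR, adjusted p = 0.330 and 0.220).

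**Figure D1:**
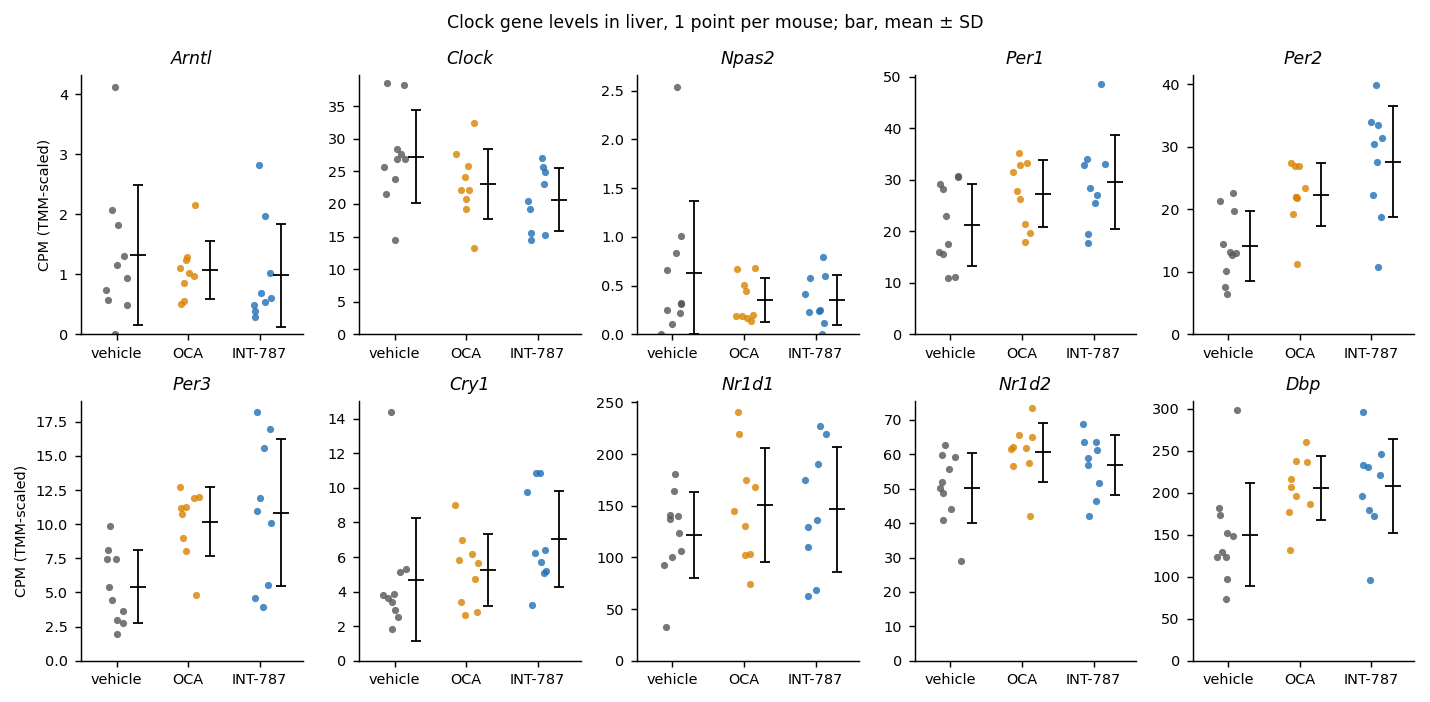
Levels of the 10 clock genes in liver, in CPM on a linear axis from 0, with 1 point for each of 10 vehicle, 9 OCA and 9 INT-787 mice and the mean ± SD beside them (bars cut at 0). For Per2, 6 of 9 INT-787 mice lie above every vehicle mouse, while the Arntl points of the 3 groups overlap throughout.

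The Period genes encode the repressors that close the loop, and of them Per2 and Per3 rose with INT-787. Per2 (chromosome 1, 91415982 to 91459324) had a lowest, median and highest level of 6.5, 13.1 and 22.7 CPM in vehicle, of 11.3, 22 and 27.4 CPM in OCA, and of 10.8, 30.4 and 39.9 CPM in INT-787. In INT-787, 6 of 9 mice lay above every vehicle mouse, and in OCA 4 of 9, whereas OCA replicate 4 and INT-787 replicate 4 lay below the vehicle median. Per2 rose 1.92-fold with INT-787 (log2 0.94 ± 0.211, adjusted p = 0.00161, edgeR), and the OCA difference was 1.55-fold (log2 0.63 ± 0.212, adjusted p = 0.0691).

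Per3 (chromosome 4, 151003652 to 151044665), a Period gene with the D-box pair shown above, ran from 1.97 to 9.90 CPM in vehicle (median 4.89), from 4.80 to 12.7 CPM in OCA (median 11.2) and from 3.90 to 18.2 CPM in INT-787 (median 10.9). With each drug 6 of 9 mice lay above every vehicle mouse. Per3 rose 1.95-fold with INT-787 (log2 0.96 ± 0.280, adjusted p = 0.0136, edgeR), a call lost with the replicate number as a block (adjusted p = 0.0726). With OCA it was 1.83-fold higher, which missed the threshold (log2 0.87 ± 0.280, adjusted p = 0.0552).

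Per1 (chromosome 11, 69095217 to 69109960), the Period gene that also responds rapidly to acute signals such as glucocorticoids, ran from 10.9 to 30.8 CPM in vehicle, from 17.9 to 35.2 CPM in OCA and from 17.7 to 48.6 CPM in INT-787. With each drug 4 of 9 mice lay above every vehicle mouse, and the log2 fold change was 0.36 ± 0.198 with OCA and 0.48 ± 0.198 with INT-787 (edgeR, adjusted p = 0.336 and 0.0852). Cry1 (chromosome 10, 85131700 to 85185064), the partner of the PER proteins, had medians of 3.69, 5.66 and 6.22 CPM in vehicle, OCA and INT-787. Its highest value of all, 14.4 CPM, came from vehicle replicate 4, against 5.32 CPM in the next vehicle mouse. The INT-787 difference was 0.55 ± 0.281 (adjusted p = 0.176), and without vehicle replicate 4 it was 0.90 (adjusted p = 0.00649, edgeR).

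The REV-ERB genes overlapped between groups. Nr1d1 (chromosome 11, 98767932 to 98775333) had medians of 130, 145 and 136 CPM, with a lowest value of 32.7 CPM in vehicle replicate 4, the same mouse that was highest in Cry1. Its log2 fold change was 0.31 ± 0.250 with OCA and 0.27 ± 0.250 with INT-787 (edgeR, adjusted p = 0.568 and 0.494). Nr1d2 (chromosome 14, 18204054 to 18239127) had medians of 51.1, 61.7 and 58.8 CPM and the narrowest spread of the tested clock genes. Its log2 fold change was 0.27 ± 0.116 with OCA and 0.18 ± 0.116 with INT-787 (edgeR, adjusted p = 0.193 and 0.295). Without vehicle replicate 5 the Nr1d1 differences were 0.37 and 0.33.

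Dbp (chromosome 7, 45705088 to 45710203), the output factor, had a lowest, median and highest level of 73.0, 139 and 298 CPM in vehicle, of 132, 206 and 260 CPM in OCA and of 95.9, 221 and 295 CPM in INT-787. In both drug groups 8 of 9 mice lay above the vehicle median, but the highest value belonged to vehicle replicate 10, against 182 CPM in the next vehicle mouse. The log2 fold change was 0.46 ± 0.187 with OCA and 0.47 ± 0.187 with INT-787 (edgeR, adjusted p = 0.162 and 0.0715). Without vehicle replicate 10 Dbp passed in both comparisons, at 0.61 (adjusted p = 0.0176) and 0.65 (adjusted p = 0.00510).

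Counted together, OCA changed 0 of 9 tested clock genes at an adjusted p of at most 0.05 by edgeR, against 6.6% of all 12580 genes tested (4.15% higher and 2.45% lower), and 4 of 9 at an unadjusted p under 0.05, against 18.5%. DESeq2 called 2 with OCA, Per2 (adjusted p = 0.0437) and Per3 (adjusted p = 0.0263). INT-787 raised 2 of 9, Per2 and Per3, and lowered none, against 19.6% of all genes called (10.2% higher and 9.48% lower), and 5 of 9 had an unadjusted p under 0.05, against 32.3%. The called share was near the background in both comparisons. Their median log2 fold change was 0.31 with OCA and 0.47 with INT-787, beside 0.0176 and -0.000996 over all tested genes. Both comparisons use the same 10 vehicle mice, so their values are not independent of each other.

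**Figure D2:**
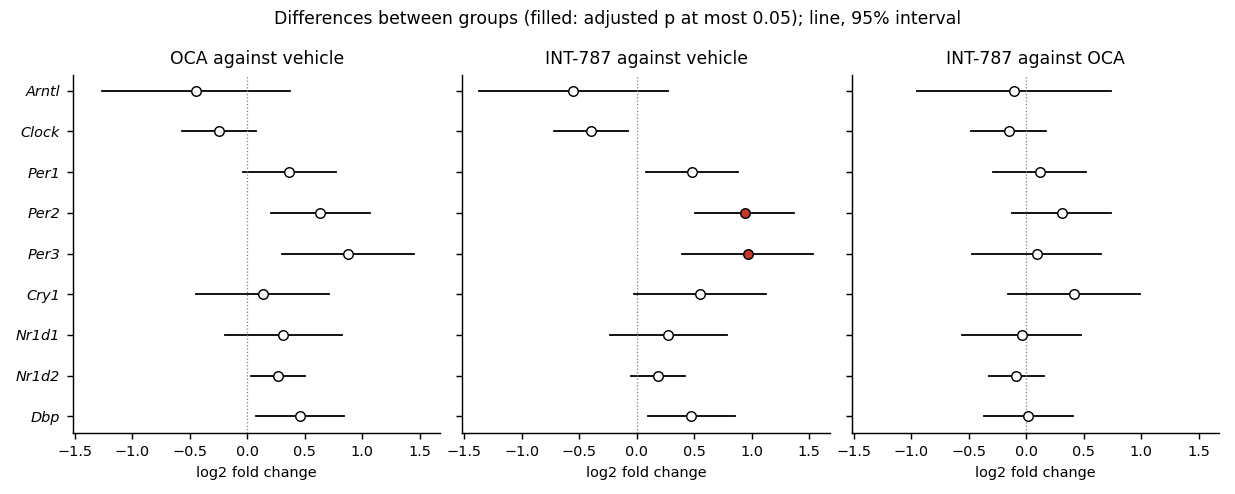
Log2 fold changes of the 9 tested clock genes in the 3 comparisons, with 95% intervals from the edgeR fit; filled points have an adjusted p of at most 0.05. Only Per2 and Per3 with INT-787 are filled, and every interval for INT-787 against OCA crosses 0.

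Compared at the matched dose, INT-787 and OCA differed in none of the 9 clock genes (edgeR, with 0 at an unadjusted p under 0.05, against 5.38% of all genes called, 2.19% higher and 3.19% lower, and 18.9% at the unadjusted level, and 0 by DESeq2). The largest difference was that of Cry1, at 0.42 on the log2 scale (95% interval -0.16 to 0.99, adjusted p = 0.464). For Per2 it was 0.31 (-0.12 to 0.74, adjusted p = 0.478), for Per3 0.09 (-0.47 to 0.65, adjusted p = 0.918) and for Dbp 0.02 (-0.37 to 0.41, adjusted p = 0.985). The intervals leave room for differences of up to 0.74 in Per2, and so do not show that the compounds act alike on the clock.

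Of the other genes of the loop, most were not called. Of 12 tested, 11 are reported here, of which 1 was called with OCA and 3 with INT-787, against 6.6% and 19.6% of all genes. OCA raised Bhlhe40, which encodes a repressor of E-box transcription (log2 0.29 ± 0.0768, adjusted p = 0.0182, edgeR). INT-787 raised Bhlhe40 (0.29 ± 0.0768) and the repressor gene Cry2 (0.60 ± 0.122), which stood at 24.7 ± 6.52 CPM (SD) in vehicle, 31.3 ± 5.01 in OCA and 36.6 ± 4.60 in INT-787. It lowered 1, Nfil3 (-0.57 ± 0.193), which encodes a repressor acting at D-boxes. None of the 12 differed between the drugs.

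Among genes that the clock is known to control, both drugs raised Tef and Usp2. Of 15 tested, 4 were called with OCA and 7 with INT-787, against the same 6.6% and 19.6% of all genes. OCA raised 2 of 15, the PAR bZIP factor gene Tef (log2 0.61 ± 0.186) and the deubiquitinase gene Usp2 (0.91 ± 0.259), and lowered Cdkn1a (-0.79 ± 0.162) and Cyp7a1 (-2.54 ± 0.312). INT-787 raised 5 of 15, Tef (0.69 ± 0.186), Usp2 (0.93 ± 0.259), the cell cycle kinase gene Wee1 (0.53 ± 0.152), the NAD synthesis gene Nampt (0.68 ± 0.186) and Rgs16 (0.85 ± 0.258), and lowered Cdkn1a (-0.78 ± 0.162) and Cyp7a1 (-2.28 ± 0.307), all by edgeR. Cyp7a1, which encodes the first enzyme of the classic route from cholesterol to bile acids, is also a target of FXR signalling through Nr0b2, and Cdkn1a also responds to p53, so neither reads the clock alone. None of the 15 differed between the drugs.

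Genes that answer glucocorticoids or body temperature, which are daily cues to the liver clock, were also read. Tat and Tsc22d3, both glucocorticoid-induced, rose with OCA (0.61 ± 0.170 and 0.67 ± 0.208) and with INT-787 (0.75 ± 0.170 and 0.58 ± 0.208). Fkbp5, likewise glucocorticoid-induced, did not pass, at -0.10 ± 0.305 and -0.24 ± 0.305. The heat shock gene Hsp90aa1 fell with both drugs (-0.46 ± 0.113 and -0.56 ± 0.113), and Hspa1a, Hspa1b and Hsph1 fell with INT-787. Hspa1a and Hspa1b are near-identical copies whose counts are uncertain. In all, 3 of 11 were called with OCA, against 6.6% of all genes, and 6 of 11 with INT-787, against 19.6%, and Hspa1b was the 1 of 11 that differed between the drugs (-1.04 ± 0.242).

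Markers of other cells moved with INT-787 beside these clock genes. Of 5 stellate and myofibroblast markers 4 fell (Col1a1, Col1a2, Lrat and Acta2), and their sum ran from 370 to 803 CPM in INT-787 against 876 to 1609 CPM in vehicle and 844 to 2429 CPM in OCA. Macrophage markers fell in 2 of 5 and endothelial markers in 2 of 4, and none of the cholangiocyte, neutrophil or lymphocyte markers was called. Of all tested genes, 9.48% were called lower with INT-787 and 10.2% higher. Of 5 hepatocyte markers 2 rose with both drugs, Alb and Cps1, against 4.15% of all genes called higher with OCA. The others were not called against vehicle. In INT-787 the means of Ttr (7213 CPM) and Serpina1c (1069) lay below vehicle (9061 and 1221), and that of Apoa1 (10196) above it (8698). Serpina1c was called lower with INT-787 than with OCA (1 of 5, against 5.38% of all genes). The part of these markers in the differences of Per2 and Per3 was not tested. In bulk liver, fewer cells of a type and less RNA per cell cannot be told apart.

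Within groups, most clock genes varied more from mouse to mouse than most other genes of at least 5 CPM. The SD of log2 CPM around the group means was 0.693 for Per3, 0.656 for Cry1, 0.646 for Nr1d1, 0.530 for Per2, 0.473 for Per1 and 0.450 for Dbp, against a median of 0.255 over those 9355 genes. Per3 exceeded 98.9% of those genes, Cry1 98.6%, Nr1d1 98.5%, Per2 96.7%, Per1 94.4% and Dbp 93.0%. Clock lay at 84.8% and Nr1d2 at 56.1%. Arntl, at 1.14 CPM on average, had an SD of 1.01, which includes the counting error of a rare transcript.

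This variation was shared between genes. Over 45 pairs of the 10 genes, 24 had a correlation of group-centred log2 CPM past an adjusted p of 0.05 (permutation within groups, 28 mice), 12 of them positive and 12 negative. How often pairs of other genes pass was not measured, so the count does not set the clock genes apart. These permutations treat the mice of a group as exchangeable, while the sets of neighbouring sample numbers described further on differed in some of these genes. Centred on group and set, 11 pairs were called, 9 of them among the 24, with 2 of the 24 changing sign, and r was 0.84 for Per2 and Per3 and -0.31 for Arntl and Per2. The tightest positive pair was Per2 and Per3, with Pearson r = 0.87 and Spearman rho = 0.84 (both permutation p = 1e-05, the smallest these permutations give). Within groups r was 0.90, 0.80 and 0.88 in vehicle, OCA and INT-787, and without the 2 mice farthest from the median it was 0.86. Per2 also went with Cry1 (r = 0.62, rho = 0.72), Dbp (r = 0.65, rho = 0.53) and Nr1d2 (r = 0.58, rho = 0.67). For Per2 and Dbp r was 0.97 in INT-787 and 0.89 in OCA but 0.35 in vehicle, and it was 0.41 without the 2 farthest mice.

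Negative pairs joined Nr1d1 and the activators with the Period and Cry genes. Nr1d1 and Cry1 had r = -0.87 and rho = -0.85 (both permutation p = 1e-05), with -0.92, -0.87 and -0.82 within the 3 groups and -0.84 without the 2 farthest mice. Nr1d1 ran against Per2 as well (r = -0.70, rho = -0.82), and Clock against Dbp (r = -0.82, rho = -0.78, with -0.87, -0.83 and -0.80 within groups and -0.78 without the 2 farthest mice). Although Nr1d1 and Dbp are both E-box-driven genes, their r was -0.39 (adjusted permutation p = 0.092) and their rho -0.58 (adjusted permutation p = 0.00765), with -0.06 in vehicle against -0.88 in OCA. Nr1d1 instead went with Clock (r = 0.55, rho = 0.69).

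**Figure D3:**
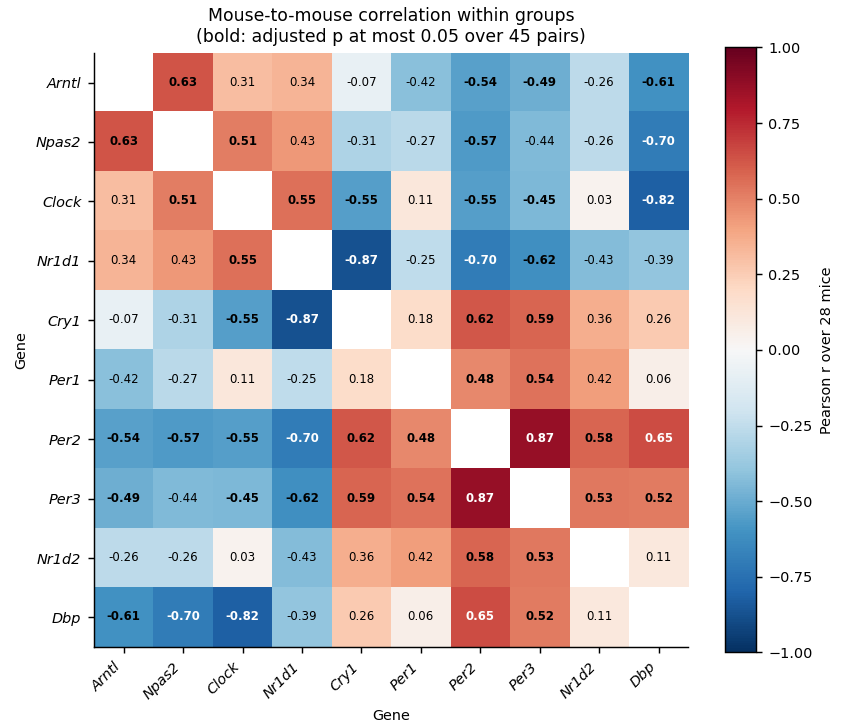
Pearson r of group-centred log2 CPM for the 45 pairs of clock genes over 28 mice, on a scale from -1 (blue) to 1 (red); bold marks the 24 pairs with an adjusted permutation p of at most 0.05. Every r within Arntl, Npas2, Clock and Nr1d1, and within the Per genes, Cry1, Nr1d2 and Dbp, is positive, and those between the 2 blocks are negative apart from Clock with Per1 (0.11) and with Nr1d2 (0.03).

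Arntl, despite its low counts, ran against some of the genes it is known to activate. Its r was -0.54 with Per2 (rho -0.58), -0.61 with Dbp (rho -0.56) and -0.49 with Per3 (rho -0.48), each over 28 mice and with an adjusted permutation p of at most 0.05 over the 45 pairs. Without the 2 farthest mice these r were -0.76, -0.55 and -0.69. With Per1 (r = -0.42, adjusted permutation p = 0.0847) and Cry1 (r = -0.07, adjusted permutation p = 0.763) it missed the threshold. With Nr1d1 its r was positive, at 0.34 (adjusted permutation p = 0.148), and rho was 0.48 (adjusted permutation p = 0.0262). Vehicle replicate 6, the shallow library without an Arntl count, weighed on these values, since r with Per2 was -0.82 and 29 pairs were called without it. In a fit with group-centred Arntl as a covariate, Per2 fell by 0.40 ± 0.0875 log2 units for each log2 unit of Arntl (edgeR, adjusted p = 0.0485), the 1 of 8 other clock genes called, against 0.159% of all genes (0.0795% in each direction), while 6 of 8 had an unadjusted p under 0.05 against 8.47%. Per3 (-0.50 ± 0.124, adjusted p = 0.112) and Dbp (-0.27 ± 0.0771, adjusted p = 0.189) missed the threshold. With 1 mouse left out at a time the Per2 slope ranged from -0.54 to -0.33, and the call went in 21 of 28 such fits, the highest adjusted p being 0.344 without INT-787 replicate 4. It also went with a block for the sets of neighbouring numbers (-0.21, adjusted p = 0.9999).

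**Figure D4:**
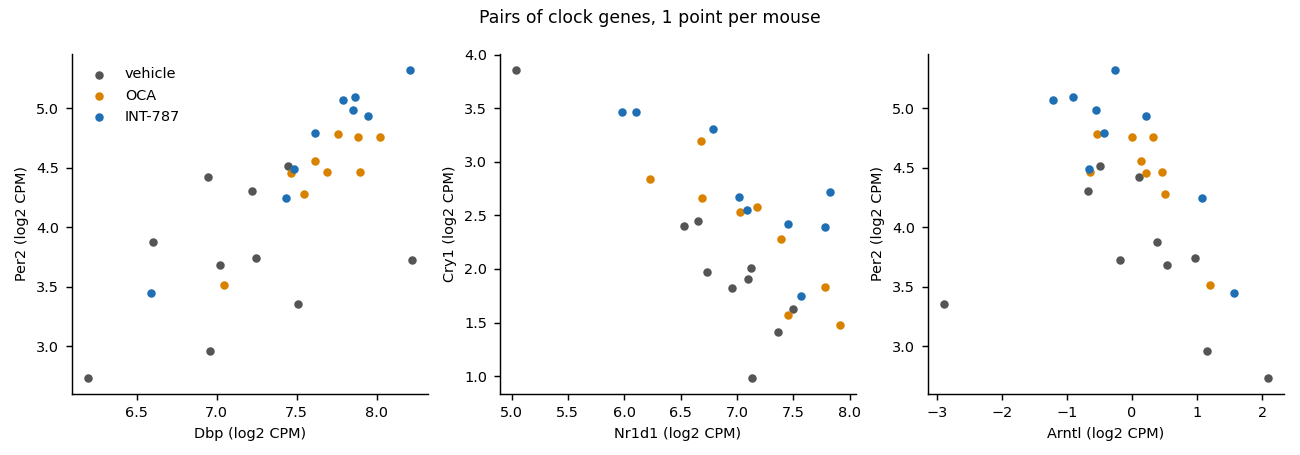
Levels of 3 pairs of clock genes on log2 CPM axes, 1 point per mouse, coloured by group. Per2 is higher where Dbp is, most closely in the INT-787 and OCA mice, Cry1 is lower where Nr1d1 is higher in all 3 groups, and Per2 is lower where Arntl is higher apart from 1 vehicle mouse at the far left, vehicle replicate 6.

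Outside the clock genes, those most like Arntl over the 28 mice were Slc35d2 (r = 0.79), Sdhaf3 (0.76), Sar1a (0.72), Rfxank (0.71) and Asb3 (0.71), among genes of at least 5 CPM. The most opposite were Usp2 (-0.76), Pdcd11 (-0.74), Lmnb2 (-0.74), Tef (-0.73) and Slbp (-0.73). Usp2 and Tef are output genes of the clock, and both were called lower with rising Arntl in the covariate fit (-0.53 ± 0.0965, adjusted p = 0.0363, and -0.35 ± 0.0657, adjusted p = 0.0366, edgeR). The covariate fit uses the same mice and Arntl values that picked these genes out, so it is no separate evidence. No gene of the table was called in that fit with a block for the sets of neighbouring numbers, nor in 10 of 28 fits with 1 mouse left out, so these calls were lost there.

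The description number of each sample was examined as a possible order of collection, a meaning that the labels do not give. Numbers ran from 2040 to 2150, apart from OCA replicate 9 at 2309, and mostly advanced through the groups in turn, a vehicle mouse followed by an OCA and an INT-787 mouse. The exceptions were number 2076, a vehicle mouse followed by another, and number 2098, a vehicle mouse followed by an INT-787 mouse. A straight line over 27 mice explained little of the clock genes. None was called, against 8% of all genes (4.86% higher and 3.14% lower). Only Per1 had an unadjusted p under 0.05, against 24.8% of all genes. It fell by 0.06 ± 0.0206 log2 units for each 10 numbers (edgeR, adjusted p = 0.0541). Its correlation with the number was r = -0.49 and rho = -0.48 (permutation p = 0.0122 and 0.0141, adjusted over 10 genes 0.122 and 0.141), with -0.67, -0.31 and -0.41 in vehicle, OCA and INT-787 and -0.46 without the 2 farthest mice. DESeq2 called Per1 (adjusted p = 0.0282). No slope differed between groups at an adjusted p of 0.05, for the clock genes or for any of 12630 genes (edgeR), although Nr1d2 (p = 0.00483) and Per3 (p = 0.0142) were among the 11.9% of all genes with an unadjusted p under 0.05 in that fit, and DESeq2 called 13 genes, none of them a clock gene.

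Sets of neighbouring numbers, in contrast, differed in clock gene levels. Each set opened with a vehicle mouse and ran up to the next one, apart from OCA replicate 9, which was alone. The mice of a set therefore came from different groups by the way the sets were drawn. In 9 sets of 2 or 3 mice, each mouse from another group, Per2 (adjusted p = 0.0120) and Nr1d1 (adjusted p = 0.0349) were called (edgeR F test over the sets), 2 of 9 against 1.74% of all genes, and 8 of 9 had an unadjusted p under 0.05 against 18.2%. Arntl (adjusted p = 0.0537) and Dbp (adjusted p = 0.0928) missed the threshold. Per2 was called in all 31 alternative fits. The Nr1d1 call went in 14 of 26 refits with 1 mouse removed, the highest adjusted p being 0.0714 without INT-787 replicate 3. Without vehicle replicate 5, whose opposite-strand counts touch Nr1d1, Dbp and Arntl, these 3 and Per2 were called, and the same 4 without INT-787 replicate 9. The share of all genes called was higher in these fits as well, at 3.27% and 5.32%.

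The set with numbers 2086 to 2092, picked out after its values were seen, lay farthest from the group means in Per2 and Per3. Its vehicle, OCA and INT-787 mice (vehicle replicate 5, OCA replicate 4 and INT-787 replicate 4) had 2.08, 2.15 and 2.82 CPM of Arntl, 1.01 to 1.69 log2 units above their group means. The same mice had 7.66, 11.3 and 10.8 CPM of Per2, 0.77 to 1.26 log2 units below their group means, and 1.97, 4.80 and 3.90 CPM of Per3. Their Dbp values of 124, 132 and 95.9 CPM were also below the group means, and their Nr1d1 values of 164, 241 and 227 CPM above them. The set with numbers 2122 to 2128 had the same signs in Arntl, Per2, Dbp and Nr1d1. In the set with numbers 2064 to 2070 all 3 mice lay the other way, with Arntl and Nr1d1 below and Per2, Cry1 and Dbp above their group means.

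**Figure D5:**
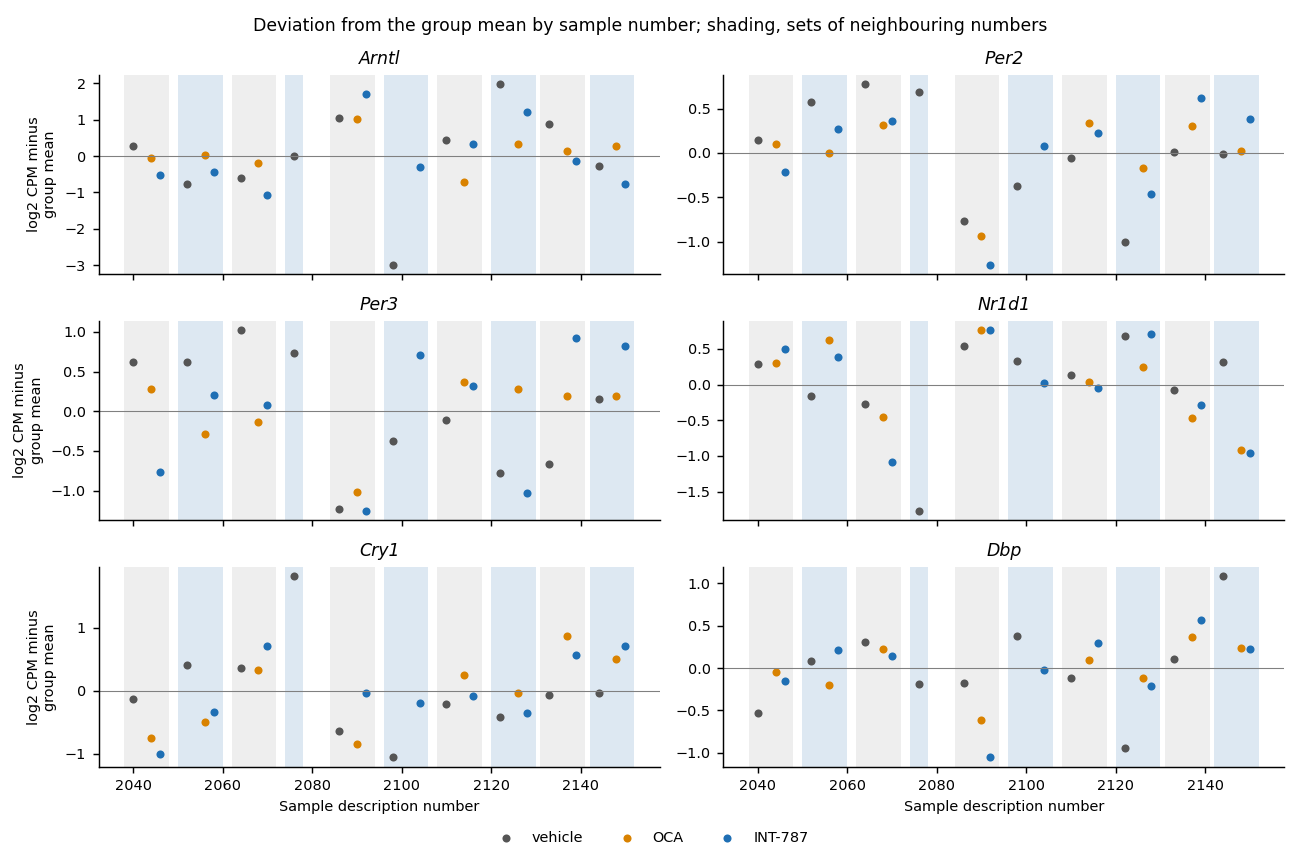
Log2 CPM minus the group mean for 6 clock genes against the sample description number, for 27 mice coloured by group, with alternating shading for sets of neighbouring numbers. In the set at 2086 to 2092 all 3 mice lie at 1.01 or above for Arntl and at -0.77 or below for Per2.

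Mice of one set resembled each other in the clock genes across treatments. Over the 9 tested clock genes, the deviations of 2 mice from different groups had a median correlation of 0.52 in 25 pairs of the same set and of -0.04 in 236 pairs of different sets, and over all tested genes the medians were 0.11 and -0.01. Dbp and Nr1d1 had all mice of a set on the same side of their group means in 6 of 9 sets and Per2, Cry1 and Clock in 5 of 9, while 20.4% of the genes of at least 5 CPM reached 5. Nr1d2 and Per3 did so in 2 of 9, below the median of 3. These values are a description, since genes and pairs share mice.

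Set against the vehicle mouse of the same set, Per2 was higher in the INT-787 mouse in 9 of 9 sets, by 0.48 to 1.58 log2 units (median 1.25), and in the OCA mouse in 8 of 8, by 0.15 to 1.55 (median 0.71). Per3 was higher in 8 of 9 and 7 of 8 sets, and Cry1 was higher with INT-787 than with OCA in 8 of 8, by 0.09 to 1.24. The labels do not give the sets as a pairing, and 13 of the 25 same-set pairs had an r over 0.1 over all genes. With the set as a block, 6 of 9 clock genes were called with INT-787, against 21.5% of all genes under the same block, namely Per1 (0.54, adjusted p = 0.0246), Per2 (1.03, adjusted p = 5.47e-06), Per3 (0.98, adjusted p = 0.00912), Cry1 (0.86, adjusted p = 0.00179), Dbp (0.47, adjusted p = 0.0236) and, lower, Clock (-0.44, adjusted p = 0.0198, all edgeR). In the OCA comparison 2 of 9 were called, against 6.41% of all genes, Per2 (0.76, adjusted p = 7.84e-04) and Per3 (1.03, adjusted p = 0.0171). Under the same block 0 of 9 differed between INT-787 and OCA, against 5.2% of all genes. What a set shared (a time of day, a day, a cage or a processing run) was not tested and is not given in the labels.

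Some output and cue genes varied between the sets too, 4 of 15 and 3 of 11, against 1.74% of all genes called. The set test called Tef (adjusted p = 0.0359), Por (0.00293), Alas1 (0.00185) and Upp2 (0.00742) of the 15 output genes, and the glucocorticoid-induced gene Fkbp5 (0.00285), the cold-induced gene Cirbp (0.00943) and Hspa8 (0.0226) of the 11 cue genes (edgeR, adjusted p). Alas1, the first enzyme of haem synthesis, and Por, the electron donor of the cytochromes P450, are known for daily rhythm in liver. None of the 12 other loop genes was called between sets (edgeR), and 3 of 12 had an unadjusted p under 0.05, against 18.2% of all genes.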

How the data were processed

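Liver mRNA was sequenced from 28 mice (10 vehicle, 9 OCA and 9 INT-787), grouped by the treatment label. The authors made strand-specific libraries, used STAR 2.5.2a to align reads to GRCm38 with Ensembl release 89, and deposited raw counts per gene. The counting program and its use of strand are not given in the sources used here. Counts were fitted with edgeR 4.0.16 in R 4.3.3 (filterByExpr, TMM, quasi-likelihood test, Benjamini-Hochberg over all tested genes, called at an adjusted p of at most 0.05). Terms were group and, in further fits, the sample number, the set of neighbouring numbers or Arntl. Errors are SE for log2 fold changes and slopes and SD for CPM. Alternatives were other normalizations and filters, limma 3.58.1 (voom), DESeq2 1.42.0, blocks, covariates and leaving out each mouse. Log2 CPM used a prior count of 2, and correlations used 100000 permutations within groups. Coordinates and exon lengths come from GENCODE M21 (GRCm38) and promoters from RefSeq.

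The 10 clock genes and all gene lists were chosen with earlier results of these data known. All 10 are named, as are list genes called in a comparison, in the number trend or between sets, and the 5 genes most like and 5 most unlike Arntl. Marker genes were mostly counted, and 1 list gene is not reported here. Of 27 pairs of same-numbered replicates from different groups, 11 had an r over 0.1 over all genes (median 0.08, against 0.0037 for other numbers, and 0.20 against 0.0085 over the clock genes), so replicate numbers, which needed every pair over 0.1, were not taken as pairs. Nor do the sets of neighbouring numbers meet that rule, with 13 of 25 same-set pairs over 0.1 and a lowest r of -0.20, so the set block is an alternative only. The smallest chi-square per gene between libraries of a group was 2.97 over 117 pairs, so none was a repeat of another. Each mouse is 1 library, and the limit on a count of 0 (3 counts) covers counting error only. The code was tested on simulated data.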

Additional observations from a re-analysis of the deposited data

Results flagged for a closer look

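Of 30 sets of values (10 clock genes in 3 groups), 6 had 1 mouse standing apart by Dixon's test. Chance flags about 1 of 20 where values follow a normal distribution. The test used CPM without logs and the sets share mice, so that rate is not a background for the 6. Vehicle replicate 8 (number 2122) was highest in vehicle for Arntl, at 4.12 CPM against 2.08 in the next mouse, and for Npas2, at 2.54 CPM against 1.01. OCA replicate 4 (number 2090) was highest in OCA for Arntl, at 2.15 CPM against 1.29, and lowest for Per2, at 11.3 CPM against 19.3. Vehicle replicate 4 (number 2076), which is alone in its set of neighbouring numbers, had 14.4 CPM of Cry1 against 5.32 in the next vehicle mouse. Vehicle replicate 10 (number 2144) had 298 CPM of Dbp against 182.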

How the results depend on the processing

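Per2 with INT-787 was called in 37 of 37 alternatives (log2 0.85 to 1.05) and Per3 in 36 of 37 (0.84 to 1.12). Of the clock genes, INT-787 changed 2, or 3 with upper-quartile normalization (Clock added, -0.46, adjusted p = 0.0344), with Arntl as a covariate (Dbp added, 0.47, adjusted p = 0.0359) and with the replicate block, 6 with the number set block and 2 to 4 with 1 mouse left out (4 without vehicle replicate 10 or INT-787 replicate 4). OCA changed 0, or 1 with limma-voom, with the 2 groups alone and with the replicate block, and 2 with DESeq2, with the number set block and with Arntl as a covariate. It changed 0 to 2 with 1 mouse left out (1 without vehicle replicate 1 or 10 or INT-787 replicate 7 or 8, and 2 without vehicle replicate 3 or 4, OCA replicate 4 or INT-787 replicate 4). With the replicate block, Dbp was called in both vehicle comparisons (0.62 with OCA, 0.61 with INT-787) and Clock with INT-787 (-0.48), Per3 with INT-787 was lost (0.86, adjusted p = 0.0726), and no other call changed.

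INT-787 against OCA stayed at 0. There, none called, the sign changed for Dbp with upper-quartile normalization (-0.0149), limma-voom (-0.0150), the replicate block (-0.00625) and the number set block (-0.0203), and for Per3 with limma-voom (-0.0704) and the number set block (-0.0530). Leaving out 1 mouse, values near 0 changed sign in ranges of -0.46 to 0.0568 (Arntl), -0.00506 to 0.19 (Per1), -0.0369 to 0.20 (Per3), -0.14 to 0.0704 (Nr1d1) and -0.0609 to 0.11 (Dbp) for INT-787 against OCA, of -0.000322 to 0.48 for Cry1 with OCA, and of -0.0102 to 0.0157 (Per3) and -0.0123 to 0.00512 (Nr1d2) for the number trend.

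The number trend called 0 clock genes, or 1 (Per1) with limma-voom, DESeq2 and the rank over all 28 mice, and 0 to 1 with 1 mouse left out. The set test called 2, or 6 with DESeq2 and 1 to 4 with 1 mouse left out. The Arntl fit called 1, or 0 with upper-quartile normalization, without a filter and with the number set block, 3 with DESeq2, and 0 to 2 with 1 mouse left out (2 without vehicle replicate 6 or INT-787 replicate 1). Pairs called were 24, or 11 centred on the number set (9 of them shared, with 2 of the 24 changing sign) and 22 and 29 without vehicle replicates 5 and 6. Over all genes, the trend called 1011, or 88 with all 28 mice and 154 to 1520 with 1 left out. The set test called 220, or 1343 with DESeq2 and 79 to 670 with 1 left out. The Arntl fit called 20, or 8 without a filter, 71 with DESeq2, 0 with the number set block and 0 to 77 with 1 left out. The interaction called 0, or 13 with DESeq2 and 0 to 19 with 1 left out, and INT-787 against OCA 677, or 443 to 888. The cause of these changes was not tested. Depth limits Arntl and Npas2, with at most 78 counts in a mouse.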
